A study of Glycine max with 47 samples.

Results

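These results describe 100 soybean genes whose root RNA was higher, averaged over groups, with the soybean cyst nematode (SCN, Heterodera glycines) than without it. This held for the average in each combination of cultivar and time point, not always for each pair of groups. The 100 genes were chosen from the 55983 genes of the deposited table by their measured values. In each combination of cultivar and time point, the mean of both groups with SCN minus the mean of both groups without it was taken on the scale of log2(CPM + 1), where CPM is a gene's counts scaled to a common library total. A gene's score was the smallest of its 4 differences, and the 100 genes of highest score were taken. All 100 passed the filter of 0.5 CPM in at least 1 library, which left 43122 genes. Because SCN against no SCN made the choice, every value of that contrast is given as a description and without a test.

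The study asked how soybean roots respond to SCN and to the soybean aphid (SBA, Aphis glycines), alone and together. Whole roots of 2 cultivars were sequenced in 47 libraries. MN1806CN resists SCN. PI518671, known as Williams 82, is susceptible to it and is also the source of the reference transcripts. Each cultivar had 4 treatments: SCN:SBA (both pests), SCN alone, SBA alone and a control with neither. SCN eggs went into the soil mixture in which the seeds were planted, and SBA was put on the leaves at the second vegetative stage. The time points, 30 and 5 dpi, count days after SBA infestation, so at 5 dpi the nematode had been present for longer than 5 days. Roots at 30 dpi came from one water bath and roots at 5 dpi from another, so time and water bath cannot be told apart. Each of the 16 groups had 3 libraries, except the MN1806CN control at 30 dpi with 2. Plants were grown in randomized blocks and the replicates came from 3 blocks, but no label ties a replicate number to a block. The total estimated counts per library ranged between 8472717 and 47902174, with a median of 18350922.

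SCN juveniles enter the root, move to the vascular tissue and induce a syncytium, a feeding site formed by the fusion of root cells, from which the females feed. In resistant cultivars the feeding site forms and then breaks down. SBA feeds on phloem sap of leaves and stems, so its effects on the root are indirect. Roots of soybean can also carry nodules with rhizobia, in which leghemoglobins, proteins that bind oxygen, are abundant. In whole-root RNA, more cells of a type and more RNA per cell cannot be told apart.

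The files pair none of the gene IDs with a name, and the reference annotation at hand matched 0 of the 55983 IDs. The genes are therefore described by their rank in score, and only 4 are given by ID. No role is given to any of them, and no pathway can be counted among them.

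One library stood apart. In replicate 3 of SBA in PI518671 at 30 dpi, a group without SCN, the 100 genes had a mean of 4.16 on the log2(CPM + 1) scale, against 2.68 and 1.97 in the other libraries of its group. The 24 libraries with SCN lay between 3.12 and 4.69, with a median of 3.91. The 23 libraries without SCN lay between 1.08 and 4.16, with a median of 2.65, and the highest of them after replicate 3 reached 3.10. That library thus had the level of a library with SCN, while all other libraries without SCN were below all libraries with it. Its label was kept, and values without it are given beside the results that it enters most.

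**Figure D1:**
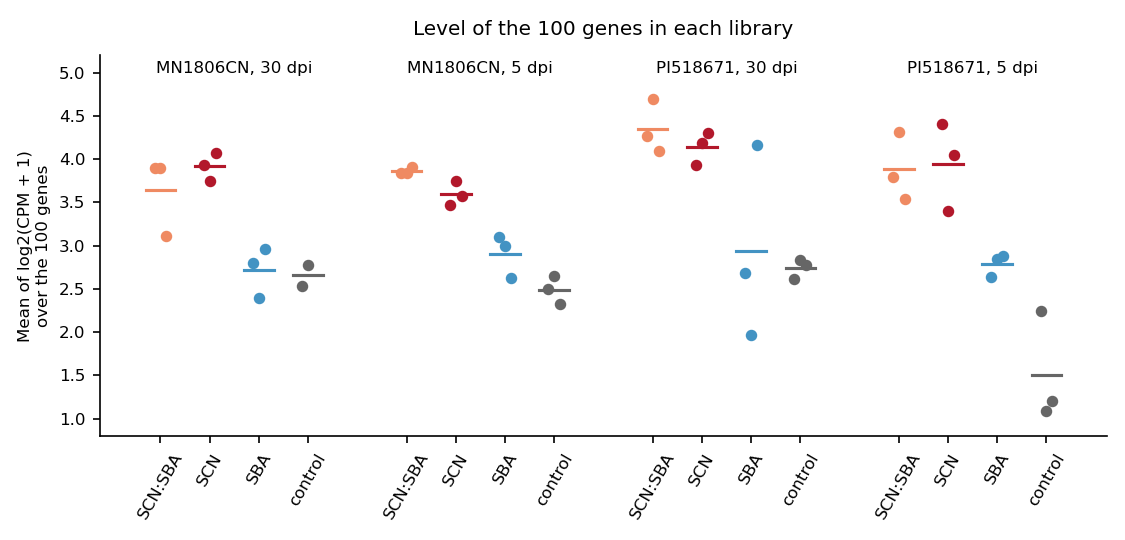
Mean of log2(CPM + 1) over the 100 genes in each library (y axis) by cultivar, time point and treatment (x axis). Points are libraries and bars are group means. The SBA library of PI518671 at 30 dpi with a mean of 4.16 lies among the SCN:SBA and SCN libraries, and the PI518671 control at 5 dpi holds the lowest values, 1.08 and 1.20.

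The control of PI518671 at 5 dpi was the lowest group, with means of 2.24, 1.08 and 1.20 in its 3 libraries. Of the 100 genes, 38 averaged under 1 CPM there, and 2 had no count in any of its libraries. In SBA roots of that cultivar and time the libraries spread between 2.63 and 2.88, above all 3 control libraries. Counted in CPM, the median of the 100 genes in PI518671 at 5 dpi was 14.3 in SCN:SBA roots, 13.7 in SCN roots, 6.28 in SBA roots and 2.39 in control roots. At 30 dpi it was 18.2 in SCN:SBA, 14.6 in SCN, 7.96 in SBA and 4.87 in control roots. In MN1806CN at 5 dpi the same medians were 11.4, 8.83, 6.16 and 4.01 CPM for SCN:SBA, SCN, SBA and control. In MN1806CN at 30 dpi they were 11.2, 12.3, 5.22 and 4.53 CPM. All 4 sets of medians place both groups with SCN above both groups without it. Without replicate 3 of SBA, the SBA median in PI518671 at 30 dpi was 4.01 CPM.

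Most of the 100 genes were of low to moderate abundance. Their mean over the 47 libraries lay between 1.34 and 1818 CPM, with a median of 9.93, and 22 of them averaged under 5 CPM. A single gene, ranked 10 by score, held 49.4% of their summed CPM, and the top 5 held 61.6%. Sums of CPM over the list therefore mostly follow 1 gene, and means of log2 values are used here instead.

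By score, the 100 genes ranged between 0.73 and 1.57. The lowest of the 4 differences, which sets the score, lay in MN1806CN at 30 dpi for 44 genes, in MN1806CN at 5 dpi for 37, in PI518671 at 30 dpi for 13 and in PI518671 at 5 dpi for 6. The genes ranked 99 and 100 had scores of 0.7284 and 0.7283, and the next genes in rank, just outside the limit, had 0.7260 and 0.7220. The limit of 100 thus falls within a continuous range of scores. Of all filtered genes, 9746 (22.6%) had a score above 0.

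The median difference between roots with and without SCN over the 100 genes is given for each combination as a description. The smallest difference, which sets the score, lay in MN1806CN for most of the 100. The low control of PI518671 at 5 dpi also enters the difference there. The medians of the cultivars are therefore not compared. In MN1806CN the medians were 0.99 at 30 dpi and 0.96 at 5 dpi. In PI518671 they were 1.30 at 30 dpi (1.60 without replicate 3 of SBA) and 1.63 at 5 dpi, on the log2(CPM + 1) scale. Over all filtered genes the medians were 0.10, 0.08, 0.09 and 0.13 in the same order. The largest single differences were 2.35 and 2.73 in MN1806CN at 30 and 5 dpi, and 2.996 and 4.01 in PI518671 at 30 and 5 dpi.

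**Figure D2:**
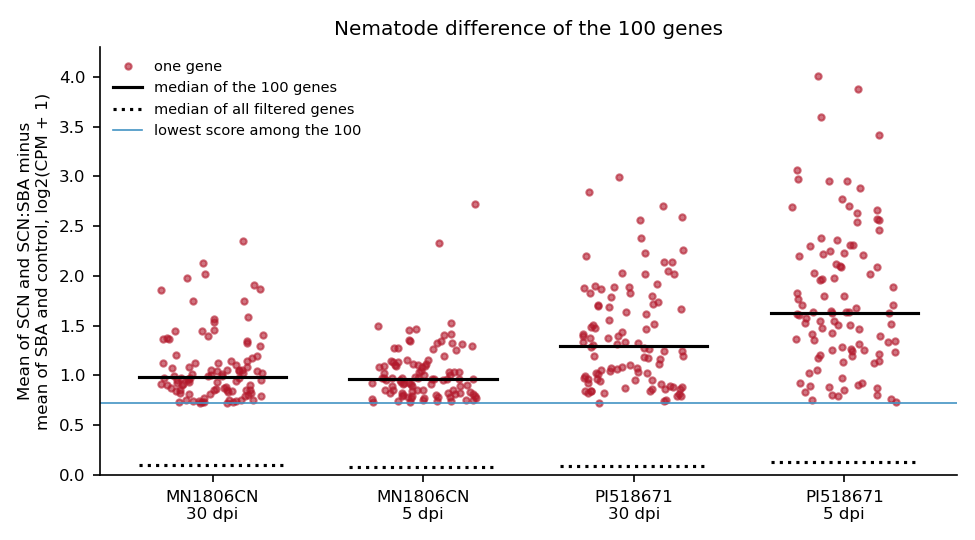
Difference between the mean of SCN:SBA and SCN and the mean of SBA and control, in log2(CPM + 1) (y axis), for each of the 100 genes in the 4 combinations of cultivar and time (x axis). Points are genes, solid lines are medians of the 100 (0.99, 0.96, 1.30 and 1.63) and dotted lines are medians of all filtered genes. The blue line is the lowest score, 0.73, below which no point can lie by construction.

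Raised means do not imply separate libraries. A gene was counted as separated where every SCN:SBA and SCN library was above every SBA and control library of its cultivar and time. In MN1806CN this held for 26 of the 100 genes at 30 dpi (5.5% of all filtered genes) and for 14 at 5 dpi (0.816%). In PI518671 it held for 4 at 30 dpi (1.09%) and for 30 at 5 dpi (3.37%). Nothing is read from these shares, since the rule used the same contrast. Without replicate 3 of SBA in PI518671 at 30 dpi, the count there was 65 in place of 4, beside 8.87% of all filtered genes. With all libraries, no gene was separated in all 4 combinations, 3 were in 3, 12 in 2, 41 in 1 and 44 in none. Among the 43122 filtered genes, 0 were separated in all 4, 12 in 3, 215 in 2, 4177 in 1 and 38718 in none.

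The rule averages over SBA, so the genes were also set out by arm. SCN roots were above control roots in the mean for 94 of the 100 genes in MN1806CN at 30 dpi and for all 100 in each other combination. Of all filtered genes, 58.2% and 60.7% were so in MN1806CN at 30 and 5 dpi, and 54.9% and 69.3% in PI518671 at 30 and 5 dpi. The median difference between SCN and control was 1.29 and 1.03 in MN1806CN at 30 and 5 dpi, and 1.33 and 2.40 in PI518671 at 30 and 5 dpi. Every SCN library was above every control library for 83 genes in MN1806CN at 30 dpi (21.9% of all filtered genes), 67 at 5 dpi (15.1%), 92 in PI518671 at 30 dpi (20.3%) and 76 at 5 dpi (26.7%). In the presence of SBA, SCN:SBA roots were above SBA roots in the mean for 91, 96, 100 and 93 genes in MN1806CN at 30 and 5 dpi and in PI518671 at 30 and 5 dpi. In that order, 62.9%, 59.3%, 64.9% and 49.1% of all filtered genes were so. The median differences of the 100 were 0.84, 0.96, 1.35 and 1.09 in the same order. Every SCN:SBA library was above every SBA library for 42 genes in MN1806CN at 30 dpi (25.5%), 61 at 5 dpi (11.8%), 14 in PI518671 at 30 dpi (6.18%) and 44 at 5 dpi (7.67%). When replicate 3 of SBA was left out, the count in PI518671 at 30 dpi was 85, beside 35.1% of all filtered genes, and the median difference was 1.90. Both group means with SCN were above both means without it in all 4 combinations for 51 of the 100 genes, beside 772 of the 43122 filtered genes.

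**Figure D3:**
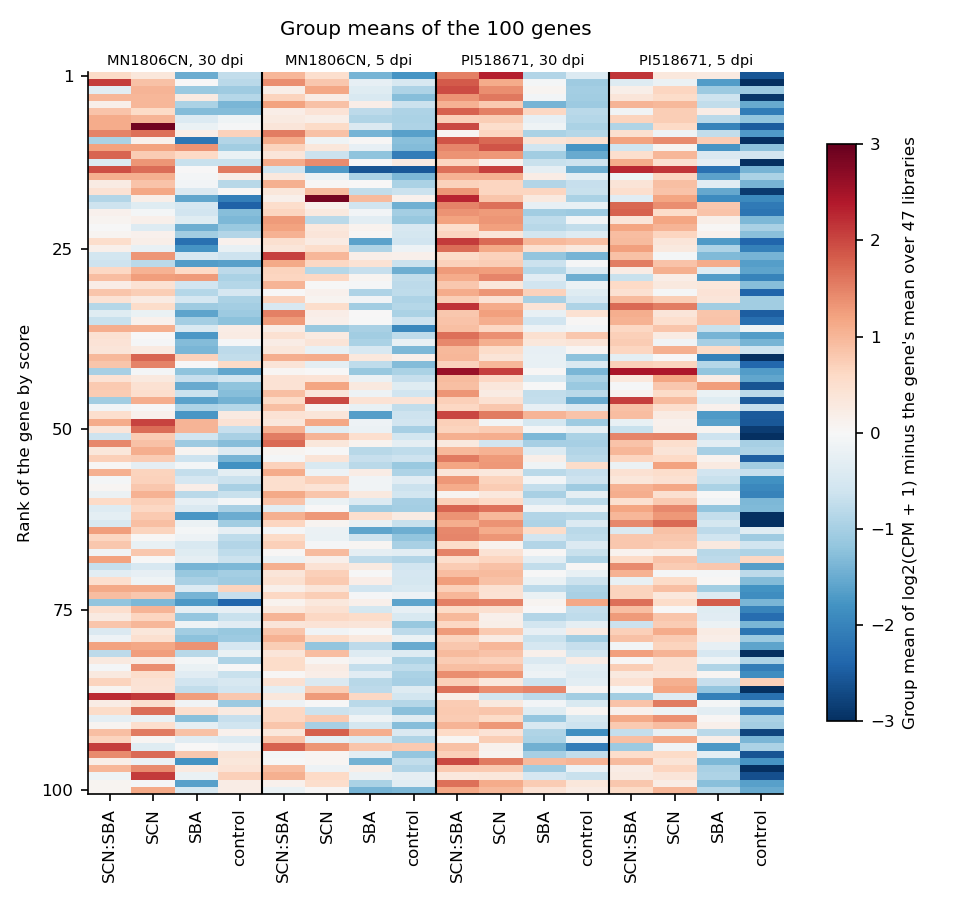
Group means of log2(CPM + 1) minus the gene's mean over the 47 libraries (colour, limited to the range of -3 to 3) for the 100 genes in order of score (rows) in the 16 groups (columns). SCN:SBA and SCN columns are mostly red and SBA and control columns mostly blue, and the PI518671 control at 5 dpi, where 38 genes averaged under 1 CPM, holds the darkest blue.

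The gene ranked 1 by score shows the pattern and its spread. In PI518671 at 5 dpi it had 89.1, 92.6 and 81.0 CPM in SCN:SBA roots, 11.0, 25.9 and 45.7 CPM in SCN roots, 31.4, 33.6 and 11.4 CPM in SBA roots and 7.16, 1.78 and 0.682 CPM in control roots. SCN:SBA roots were above all others there, whereas SCN and SBA roots overlapped. In PI518671 at 30 dpi it had 175, 54.5 and 17.3 CPM in SCN:SBA roots and 99.2, 58.9 and 167 CPM in SCN roots, against 11.2, 5.53 and 15.1 CPM in SBA roots and 9.07, 17.7 and 16.7 CPM in control roots. Only the third SCN:SBA library came within the range of the libraries without SCN. In MN1806CN at 5 dpi it had 47.5, 43.4 and 27.6 CPM in SCN:SBA roots and 40.9, 21.4 and 22.7 CPM in SCN roots, against 3.91, 23.8 and 2.59 CPM in SBA roots and 8.12, 3.41 and 3.91 CPM in control roots. One SBA library, at 23.8 CPM, overlapped the SCN roots. In MN1806CN at 30 dpi it had 60.4, 19.8 and 19.6 CPM in SCN:SBA roots and 10.2, 35.1 and 38.4 CPM in SCN roots, against 4.03, 5.05 and 10.8 CPM in SBA roots and 8.43 and 14.3 CPM in control roots. Its score, 1.57, was set there.

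The gene ranked 10 was the most abundant of the 100. In PI518671 at 5 dpi it had 3686, 3805 and 1366 CPM in SCN:SBA roots, 3438, 2309 and 3750 CPM in SCN roots, 1967, 2187 and 1774 CPM in SBA roots and 359, 62.2 and 12.8 CPM in control roots. The control libraries were all below the SBA libraries and, as a ratio, spread more widely than the libraries of each other treatment there. In MN1806CN at 30 dpi the same gene had 1095, 498 and 402 CPM in SCN:SBA roots and 917, 1015 and 2204 CPM in SCN roots, against 273, 88.1 and 706 CPM in SBA roots and 341 and 1144 CPM in control roots. One control library lay within the range of the SCN roots.

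The gene ranked 14 had the largest fall of the 100 in MN1806CN against PI518671 at 5 dpi. In PI518671 at 5 dpi it had 49.8, 105 and 62.0 CPM in SCN:SBA roots and 135, 42.9 and 44.9 CPM in SCN roots, against 1.98, 2.21 and 2.15 CPM in SBA roots and 5.42, 5.87 and 3.001 CPM in control roots. In MN1806CN at 5 dpi it had 5.06, 11.0 and 11.2 CPM in SCN:SBA roots and 2.96, 2.22 and 6.26 CPM in SCN roots, against 2.20, 1.55 and 0.784 CPM in SBA roots and 1.22, 3.76 and 0.477 CPM in control roots. Groups with and without SCN were far apart in PI518671 and overlapped in MN1806CN. Over the 4 treatments at 5 dpi it was lower in MN1806CN than in PI518671, with a log2 fold change of -2.36 (SE 0.31) and an adjusted p of 1.99e-05 (edgeR, adjusted by Benjamini-Hochberg).

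A choice made on measured values carries noise of the same libraries, so the rule was also applied without the libraries of 1 replicate number, and the difference was read in the libraries left out. Of the 100 genes chosen without replicate 1, 78 were above 0 in all 4 combinations in the left-out libraries, beside 20.5% of all filtered genes. The count was 88 without replicate 2 (19.3%) and 59 without replicate 3 (9.96%). For replicate 3 the MN1806CN control at 30 dpi has no library, so SBA alone stood for the roots without SCN, and replicate 3 of SBA in PI518671 at 30 dpi was among the libraries read. These lists are not the list described here: they shared 54, 58 and 58 genes with it.

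Tests were made on contrasts other than the rule's own: SBA added to SCN, SBA alone, the SBA by SCN interaction, cultivar and time. They are uncorrelated with the rule's contrast only where groups are of equal size and equal spread. The MN1806CN control at 30 dpi had 2 libraries. The 3 SBA libraries of PI518671 at 5 dpi deviated from their group mean by -0.15, 0.06 and 0.09 in the mean of the 100 genes, against 0.73, -0.43 and -0.31 for the control libraries. A gene with a low control mean there can gain in score and gains in its SBA difference alike, so the adjusted p-values of that comparison and of its interaction do not account for the choice of genes. In PI518671 at 30 dpi the SBA libraries deviated by -0.26, -0.97 and 1.22, against -0.13, 0.09 and 0.03 for the control libraries. The p-values of SBA against control and of the interaction there do not account for the choice either. All p-values below are two-sided, from the quasi-likelihood test of edgeR, adjusted by Benjamini-Hochberg over the 43122 genes of each of 16 comparisons, and a gene was called at an adjusted p under 0.05.

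SBA without SCN went with higher levels of these genes in PI518671 at 5 dpi. Of the 100, 17 rose in SBA roots against control roots (5.26% of all filtered genes) and 3 fell (6.33%). The log2 fold changes of the 17 lay between 1.73 and 4.38, with a median of 2.72. The median log2 fold change over all 100 was 1.55, beside 0.19 over all filtered genes. On the log2(CPM + 1) scale 90 of the 100 had a higher mean in SBA than in control roots, as did 77.5% of all filtered genes. The control libraries of this comparison hold the lowest levels of the series and are the same ones with which SCN roots of this cultivar and time were compared. The count in both directions depends on single libraries, and so does that of all filtered genes. Without replicate 1 of the control 49 of the 100 were called (28.7% of all filtered genes), without its replicate 2 there were 4 (2.80%) and without its replicate 3 there were 5 (3.07%). Without an SBA library the count was 7 for replicate 1 (4.14%), 12 for replicate 2 (6.97%) and 9 for replicate 3 (4.14%).

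Glyma.11g162100, ranked 31, had the largest of these changes. It had 10.01, 4.83 and 11.1 CPM in SBA roots, against 0.623, 0.111 and 0.2001 CPM in control roots of PI518671 at 5 dpi, with a log2 fold change of 4.38 (SE 1.14, adjusted p = 0.0309). The groups did not overlap, but the control values are near or under the filter limit of 0.5 CPM. The call held in 2 of the 6 fits that left out 1 of these libraries. Among these fits the adjusted p by edgeR reached 0.125 without replicate 2 of the control. In the other groups of that cultivar and time it had 2.69, 4.78 and 38.6 CPM in SCN:SBA roots and 14.9, 1.74 and 5.94 CPM in SCN roots, so that SBA roots lay within the range of roots with SCN. In PI518671 at 30 dpi the same comparison had 11.6, 8.12 and 11.0 CPM in SBA roots and 7.75, 4.64 and 2.09 CPM in control roots, with an adjusted p of 0.197.

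Glyma.13g224900, ranked 54, rose more evenly. It had 8.43, 3.95 and 7.70 CPM in SBA roots, against 0.374, 0.149 and 0.2001 CPM in control roots of PI518671 at 5 dpi. These control values are under the filter limit of 0.5 CPM. Its log2 fold change was 4.27 (SE 0.68, adjusted p = 0.00442), and it was called in all 6 fits that left out a library. In the presence of SCN, SCN:SBA roots had 4.38, 10.2 and 18.9 CPM and SCN roots 16.1, 6.67 and 7.62 CPM, with a log2 fold change of 0.06 (SE 0.54). The interaction, the change with SBA in the presence of SCN minus that in its absence, was -4.21 (SE 0.86, adjusted p = 0.0349). This was the only 1 of the 100 called for the interaction in PI518671 at 5 dpi, beside 0.768% of all filtered genes called negative and 0.916% called positive. It was called in 4 of the 12 fits that left out a library, and the adjusted p reached 0.0922 without replicate 3 of the control.

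Glyma.02g205600, ranked 68, went the other way. It had 0.386, 0.331 and 0.110 CPM in SBA roots, against 1.75, 2.24 and 3.35 CPM in control roots of PI518671 at 5 dpi. It fell by 3.77 on the log2 scale (SE 0.97, adjusted p = 0.0288), and the call held in 1 of the 6 fits that left out a library. The groups did not overlap, yet the SBA values are near the filter limit. The control roots of that group overlapped SCN:SBA roots, at 3.57, 4.76 and 0.340 CPM, and SCN roots, at 7.58, 0.847 and 2.91 CPM. In all the other control groups it was under 1 CPM. The other genes that fell were ranked 14 and 85, by 1.81 and 2.20 on the log2 scale, and their calls held in 1 and 2 of the 6 fits that left out a library.

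**Figure D4:**
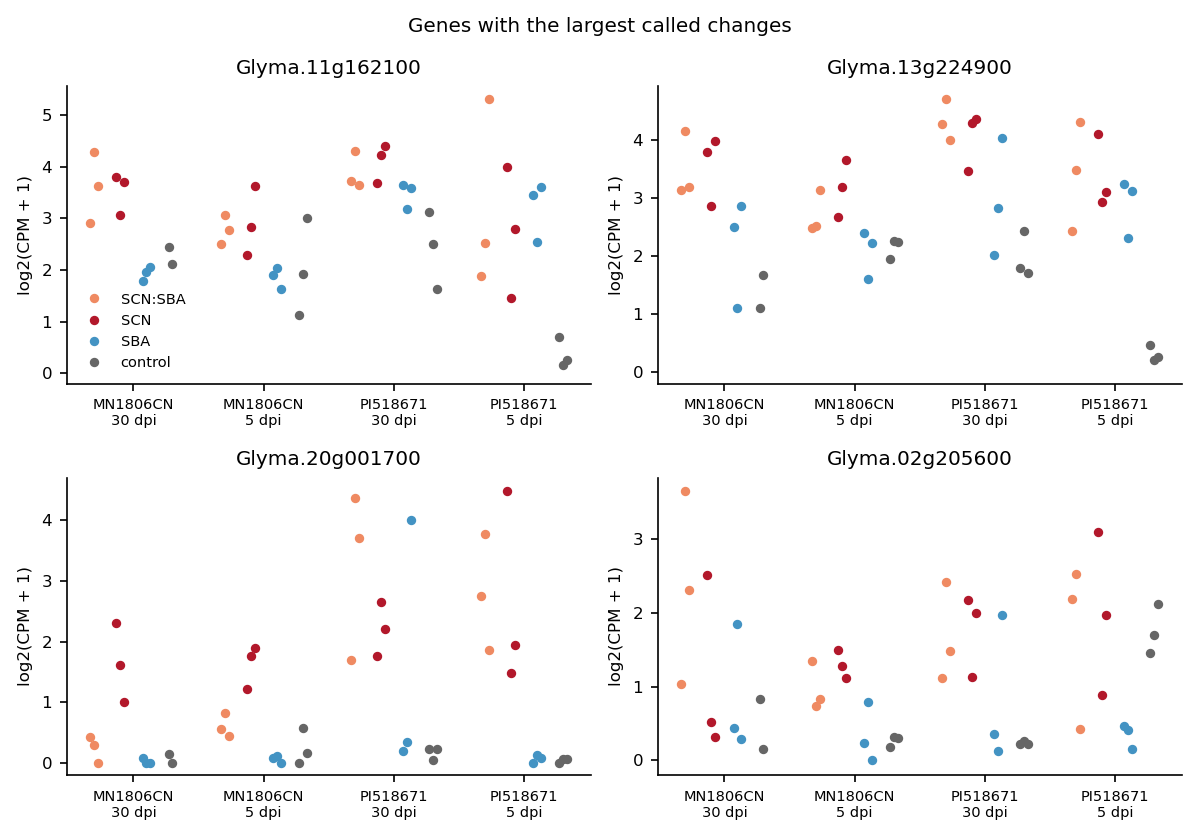
log2(CPM + 1) in each library (y axis) of the 4 genes given by ID, by cultivar and time (x axis) and treatment (colour). In PI518671 at 5 dpi the control points of Glyma.11g162100 and Glyma.13g224900 lie near 0 and those of Glyma.02g205600 above the SBA points. In PI518671 at 30 dpi 1 SBA point of Glyma.20g001700, at 15.0 CPM before the log, lies with the SCN:SBA points.

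In the other 3 combinations, SBA against control called none of the 100 genes. At an unadjusted p under 0.05 by edgeR there were 28 in MN1806CN at 30 dpi (10.3% of all filtered genes), 25 at 5 dpi (19.4%) and 28 in PI518671 at 30 dpi (15.6%). DESeq2 called 13 (0.993%), 5 (6.95%) and 13 (2.88%) in the same order. Almost no gene was called in them at all: 0 higher and 0 lower in MN1806CN at either time, and 0.00696% higher in PI518671 at 30 dpi. The median log2 fold changes of the 100 were 0.10, 0.47 and 0.73, beside 0.00, 0.03 and 0.08 over all filtered genes. Without replicate 3 of SBA, 7 of the 100 were called in PI518671 at 30 dpi, 4 higher (5.89% of all filtered genes) and 3 lower (5.02%). With all libraries 59 of the 100 had a higher mean in SBA than in control roots there (38.4% of all filtered genes), and without that library 28 did (35.4%).

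For SBA added to SCN, 9 of the 100 genes were called in MN1806CN at 30 dpi, beside 8.28% of all filtered genes. None was called elsewhere by edgeR without a replicate block. There, 1 of the 100 was higher in SCN:SBA than in SCN roots (3.77% of all filtered genes) and 8 were lower (4.5%), with log2 fold changes of the 8 between -1.22 and -3.92 and a median of -2.31. In MN1806CN at 5 dpi and in PI518671 at 30 and 5 dpi none was called, beside 0.0116%, 0 and 0 of all filtered genes higher. In these, 28, 1 and 6 of the 100 had an unadjusted p under 0.05 by edgeR, beside 18.2%, 3.20% and 4.86% of all filtered genes. DESeq2 called 13 in MN1806CN at 5 dpi (4.16% of all filtered genes) and 0 in PI518671 at either time. With replicate number as a block, edgeR called 8 of the 100 higher and 1 lower in MN1806CN at 5 dpi. Of all filtered genes, 806 were called higher and 970 lower in that fit. The median log2 fold changes of the 100 were -0.21 and 0.19 in MN1806CN at 30 and 5 dpi, and 0.30 and -0.26 in PI518671 at 30 and 5 dpi.

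Among the 8 genes that fell in MN1806CN at 30 dpi, the one ranked 98 had the lowest adjusted p. It had 9.58, 5.59 and 4.14 CPM in SCN:SBA roots, against 26.3, 31.6 and 38.9 CPM in SCN roots, with a log2 fold change of -2.49 (SE 0.38, adjusted p = 0.00607 by edgeR), and was called in all 6 fits that left out a library. SCN:SBA roots were at the level of roots without SCN, which had 4.46, 3.95 and 10.1 CPM with SBA and 9.83 and 13.9 CPM in the control. The gene ranked 81 had 9.53, 13.6 and 2.91 CPM in SCN:SBA roots, against 39.8, 31.5 and 31.2 CPM in SCN roots, and the gene ranked 13 had 64.1, 62.0 and 36.2 CPM, against 132, 154 and 274 CPM. None of the 3 genes overlapped between these groups. Over both directions the count of the 100 was 5 without replicate 3 of SCN:SBA (4.03% of all filtered genes), 2 without replicate 3 of SCN (2.95%) and 4 without its replicate 1 (2.67%).

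Glyma.20g001700, ranked 33, had the largest fall in this comparison and in the cultivar comparison at the same time. It had 0.340, 0.227 and 0 CPM in SCN:SBA roots, against 3.93, 2.07 and 1.00 CPM in SCN roots of MN1806CN at 30 dpi, with a log2 fold change of -3.92 (SE 0.96, adjusted p = 0.0318 by edgeR). The call held in 1 of the 6 fits that left out a library. Over the 4 treatments at 30 dpi it was lower in MN1806CN than in PI518671, with a log2 fold change of -3.95 (SE 0.95, adjusted p = 0.00231), and it was called in all 23 fits that left out a library. In PI518671 at 30 dpi it had 2.24, 19.6 and 12.1 CPM in SCN:SBA roots and 2.39, 5.29 and 3.64 CPM in SCN roots, against 0.143, 0.273 and 15.0 CPM in SBA roots. The last of these is replicate 3 of SBA. The single gene that rose with SBA in SCN roots of MN1806CN was ranked 94, with 162, 644 and 66.1 CPM in SCN:SBA roots, against 39.3, 39.2 and 26.2 CPM in SCN roots, and its call held in 2 of the 6 fits that left out a library.

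Of the 17 genes that rose with SBA alone in PI518671 at 5 dpi and the 8 that fell with SBA added to SCN in MN1806CN at 30 dpi, 4 were shared: those ranked 13, 46, 81 and 98. The comparisons have no library in common. The share is 4 of 17 in the first list and 4 of 8 in the second, and it was read off after the values were seen. The same overlap was not counted over all filtered genes, so nothing is read from it.

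No gene of the 100 was called for the SBA by SCN interaction in MN1806CN at 30 or 5 dpi or in PI518671 at 30 dpi by edgeR. Of all filtered genes, 0.058% were called positive and 0.0951% negative in MN1806CN at 30 dpi, 0.00464% positive at 5 dpi, and 0 in PI518671 at 30 dpi. In the same order, 36, 8 and 11 of the 100 had an unadjusted p under 0.05, beside 15.6%, 13.0% and 5.34% of all filtered genes. DESeq2 called 21 (4.40%), 1 (0.782%) and 0 (0.167%). In PI518671 at 5 dpi the median interaction of the 100 was -1.52 on the log2 scale, beside -0.14 over all filtered genes, with 33 at an unadjusted p under 0.05 (18.4%). Without replicate 1 of the control 31 of the 100 were called there, all negative, beside 7.15% of all filtered genes called positive and 7.89% called negative.

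The level averaged over the 4 treatments differed between cultivars for many of the 100 genes, in both directions, as it did for many of all filtered genes. At 30 dpi 47 of the 100 were called, beside 18383 of the 43122 filtered genes. At 5 dpi 31 of the 100 were called, beside 9928. The totals are thus not read as particular to the 100. At 30 dpi 10 were higher in MN1806CN than in PI518671 (18.2% of all filtered genes) and 37 were lower (24.5%). The 37 had a median log2 fold change of -1.52. Without replicate 3 of SBA in PI518671, 23 were higher and 31 lower, beside 23.7% and 26.5% of all filtered genes. At 5 dpi 22 were higher in MN1806CN (12.3%) and 9 lower (10.7%), with medians of 1.56 and -1.09. Of the genes higher in MN1806CN, 5 were called so at both times, which is 5 of 10 at 30 dpi and 5 of 22 at 5 dpi. Another 2 were called lower at both times, 3 higher at 5 dpi and lower at 30 dpi, and 1 the reverse. These overlaps were not counted over all filtered genes. The gene ranked 26 had the largest difference at 5 dpi, 3.19 on the log2 scale over the 4 treatments (SE 0.49, adjusted p = 0.000103 by edgeR). In SCN:SBA roots it had 8.21, 14.2 and 9.20 CPM in MN1806CN, against 6.65, 6.93 and 1.09 CPM in PI518671. These lie less far apart than the average over the treatments. At 30 dpi the gene ranked 87 was the most raised in MN1806CN, by 2.13 on the log2 scale (SE 0.34, adjusted p = 5.13e-05).

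Between the time points, 37 of the 100 genes were called higher at 30 than at 5 dpi in PI518671 (14.9% of all filtered genes) and none was called lower (14%). Called or not, 18 of the 100 had a negative log2 fold change. The median log2 fold change of the 100 was 0.68, beside -0.01 over all filtered genes. Without replicate 3 of SBA at 30 dpi, 32 were higher (15.9%) and 4 lower (16.03%). The low control of PI518671 at 5 dpi enters this average. In MN1806CN, 30 were higher at 30 dpi (23.4%) and 23 lower (22.7%), and the median was 0.10. The gene ranked 14 had the largest rise in MN1806CN, by 3.69 on the log2 scale (SE 0.30, adjusted p = 3.74e-08 by edgeR). It had 60.4, 48.2 and 56.9 CPM in SCN:SBA roots at 30 dpi, against 5.06, 11.0 and 11.2 CPM at 5 dpi, and 33.6 and 52.1 CPM in control roots at 30 dpi, against 1.22, 3.76 and 0.477 CPM at 5 dpi. The gene ranked 18 had the largest fall, by 2.77 (SE 0.45, adjusted p = 6.11e-05). Of the genes higher at 30 dpi, 14 were so in both cultivars, which is 14 of 37 in PI518671 and 14 of 30 in MN1806CN. Another 3 were called higher at 30 dpi in PI518671 and lower in MN1806CN. These overlaps were not counted over all filtered genes.

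**Figure D5:**
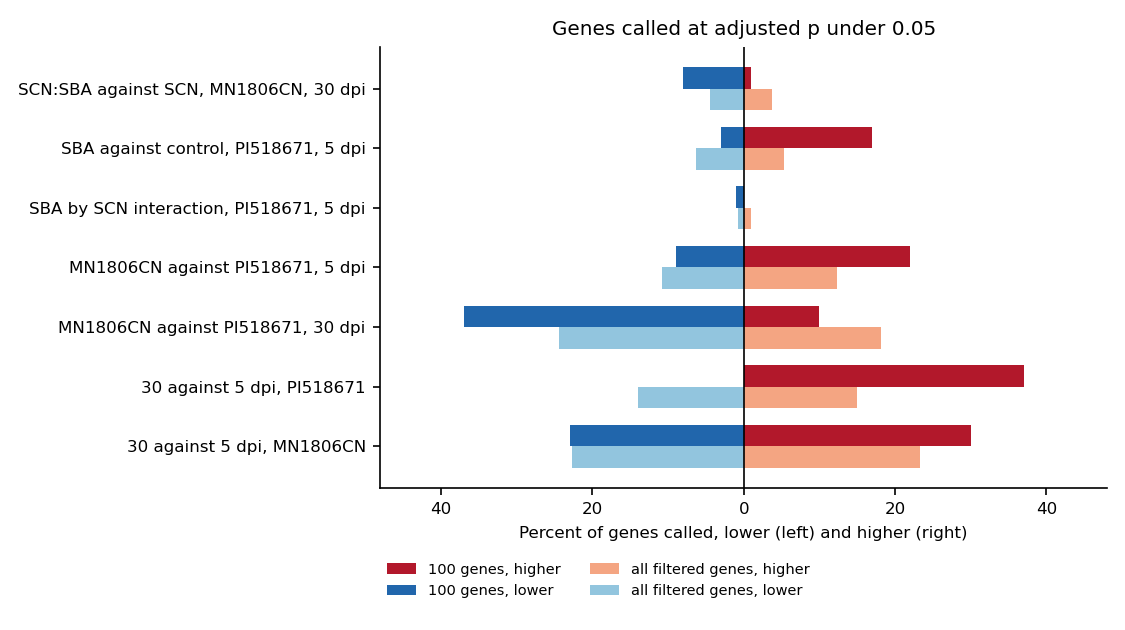
Percent of the 100 genes (dark bars) and of all 43122 filtered genes (light bars) called higher (right) or lower (left) at an edgeR adjusted p under 0.05 (x axis), for the comparisons that called at least 1 of the 100 (y axis). The 17 genes called higher in SBA than in control roots of PI518671 at 5 dpi stand beside 5.26% of all filtered genes. No gene of the 100 was called lower at 30 than at 5 dpi in PI518671.

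Within groups the 100 genes varied together. The deviations of the libraries from their group means had a mean Pearson's r of 0.33 over the 4950 pairs of the 100, with 88.8% of the pairs above 0, against 0.07 over 34452 filtered genes with a mean of at least 1 CPM. The points are the 47 libraries, and pairs share library, depth and group. Without replicate 3 of SBA in PI518671 at 30 dpi the mean r was 0.24 over the 100, with 80.5% of the pairs above 0, against 0.07. The gene most like the one ranked 1, over the log2(CPM + 1) of the 47 libraries, had an r of 0.93 and is not among the 100. The second, ranked 20, is, with an r of 0.87.

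The IDs give a chromosome and an order along it. Chromosome 1 held 12 of the 100 genes, out of 1852 filtered genes there, against 100 out of 43122 in all. Chromosome 7 held 9, chromosomes 3 and 6 held 1 each, and 2 were on unplaced sequences. In 10 pairs the genes lay within 10 IDs of each other, and 3 of these pairs were next to each other: ranks 34 and 35 on chromosome 5 (r = 0.96 over 47 libraries), ranks 62 and 79 on chromosome 7 (0.86) and ranks 98 and 9 on chromosome 13 (0.72). Ranks 11 and 29, on chromosome 7 and 2 IDs apart, had an r of 0.96. Neighbours with near-identical sequence can share reads in Salmon's estimates, and whether these do was not tested. Of 144 immediate neighbours that are not among the 100, 40 (27.8%) had a score above 0, beside 22.6% of all filtered genes.

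Leghemoglobin RNA was correlated with these genes over all libraries, differences between groups included. The summed level of 4 IDs, written down as leghemoglobins from general knowledge and not named in the files, had a Pearson's r of 0.55 with the mean level of the 100 over the 47 libraries and of 0.54 without replicate 3 of SBA in PI518671 at 30 dpi. None of the 4 is among the 100. For single genes of the 100 the r lay between 0.03 and 0.87, with a median of 0.41. In PI518671 at 5 dpi the summed level had a range of 568 to 7957 CPM in SCN:SBA roots, 1521 to 17324 in SCN roots, 52.9 to 4471 in SBA roots and 21.3 to 276 in control roots. In PI518671 at 30 dpi it was 4126 to 12790 CPM in SCN:SBA, 7211 to 12358 in SCN, 426 to 11782 in SBA and 150 to 4287 in control roots, and the highest SBA value was that of replicate 3. In MN1806CN at 5 dpi the summed level was 905 to 10812 CPM in SCN:SBA roots and 41.2 to 3777 in SBA roots. SCN roots there had 15.1, 30.7 and 3094 CPM, against 101.3 to 262.6 CPM in control roots. The mean level of the 100 genes there was 3.84 to 3.91 in SCN:SBA, 3.47 to 3.75 in SCN, 2.63 to 3.10 in SBA and 2.32 to 2.65 in control libraries. The choice of genes used SCN against no SCN, so nothing is read from these levels. In MN1806CN at 30 dpi the list had 489 to 19602 CPM in SCN:SBA, 1005 to 17515 in SCN, 1107 to 18811 in SBA and 2312 to 4747 in control roots. The part of leghemoglobin-bearing tissue in the differences between roots with and without SCN was not tested.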

How the data were processed

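The authors trimmed single-end reads of whole-root RNA with Btrim64 and quantified them with Salmon 0.9.1 on the primary transcripts of the soybean annotation Wm82.a2.v1. The authors deposited estimated counts for each gene in each library, without normalization or filter. They were rounded to whole numbers for the filter and for the edgeR and DESeq2 fits. The CPM values, scores and other descriptions used them unrounded. Groups were taken from the sample labels. Reads carry no molecular identifiers, and a gene at 0.5 CPM rests on few counts. Replicates are separate plants.

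Members were ranked on CPM of the column totals. The members and lists were chosen with earlier results of these data known. Comparisons were fitted with edgeR 4.0.16 in R 4.3.3 (TMM, quasi-likelihood F test, Benjamini-Hochberg adjustment) on genes at 0.5 CPM or more in at least 1 library. A treatment fit held the 4 groups of its cultivar and time, a cultivar or time fit held 8 groups. SE is the absolute log2 fold change divided by the root of the F statistic, an approximation. The edgeR treatment fit of PI518671 at 30 dpi was tested on simulated data in which known genes were changed. The other fits were not tested so. Alternatives were DESeq2 1.42.0, RLE size factors, other filters, a replicate block, a fit of all 47 libraries and each library left out. After the data were seen, the rule was also run on SCN against control and on SCN:SBA against SBA alone, and counts were repeated without replicate 3 of SBA in PI518671 at 30 dpi.

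By the rule for names without annotation, the IDs given are the 2 genes called higher and the 2 called lower with the largest log2 fold change and a mean of at least 1 CPM in the fit. Pathway lists and green-tissue markers were to be found by words in gene descriptions and could not be used, since 0 IDs matched. Figures were drawn with matplotlib 3.10.9.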

Additional observations from a re-analysis of the deposited data

Results flagged for a closer look

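The SBA by SCN interaction in PI518671 at 5 dpi called 1 of the 100 genes, Glyma.13g224900 (log2 difference -4.21, edgeR adjusted p = 0.0349). It tests the difference between the changes with SBA in roots with and without SCN. This adjusted p does not account for the choice of genes, and the call held in 4 of the 12 fits that left out a library. Of all filtered genes, 0.916% were called positive and 0.768% negative there. The count of the 100 called was 16 by DESeq2 (7.497% of all filtered genes), 31 without replicate 1 of the control (15.04%) and 0 with a replicate block.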

How the results depend on the processing

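Counts below are of the 100 genes called. Counts over all filtered genes also moved with the setting. For SCN:SBA against SCN in MN1806CN at 30 dpi, edgeR called 1627 of them higher and 1942 lower. DESeq2 called 2702 and 3071, and the fit of all 47 libraries 1309 and 1261. At 5 dpi the same counts were 5 and 0, 1159 and 637, and 38 and 10. A change in a count below is therefore not read as particular to the 100. DESeq2 called more than edgeR for SCN:SBA against SCN in MN1806CN at 30 dpi (18) and 5 dpi (13), for SBA against control in MN1806CN at 30 dpi (13) and 5 dpi (5) and in PI518671 at 30 dpi (13) and 5 dpi (35), and for the interaction in MN1806CN at 30 dpi (21) and 5 dpi (1) and in PI518671 at 5 dpi (16). One fit of all 47 libraries called 5 for SCN:SBA against SCN in MN1806CN at 30 dpi, 4 and 45 for SBA against control in MN1806CN at 30 dpi and PI518671 at 5 dpi, and 4 and 19 for the interaction in the same order. For the interaction in PI518671 at 5 dpi, RLE size factors, filterByExpr and no filter called 2 each, and for that in MN1806CN at 30 dpi no filter called 1. Leaving out each library in turn called 2 to 10 for SCN:SBA against SCN in MN1806CN at 30 dpi. For SBA against control it called 4 to 49 in PI518671 at 5 dpi and 0 to 7 at 30 dpi. For the interaction it called 0 to 31 in PI518671 at 5 dpi (2 without replicate 2 of SBA or replicate 3 of SCN:SBA, 31 without replicate 1 of the control) and 0 to 4 in MN1806CN at 30 dpi (4 without replicate 2 of SBA, 1 and 3 without replicates 1 and 2 of SCN:SBA). For MN1806CN against PI518671 it called 38 to 54 at 30 dpi and 23 to 37 at 5 dpi, and for 30 against 5 dpi 48 to 54 in MN1806CN and 35 to 46 in PI518671. In the remaining comparisons it called 0 throughout. Where this left 1 control library in MN1806CN at 30 dpi, that library was assumed to vary like the other groups. The causes were not tested, beyond the fewer libraries of these fits.

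Of the 100 genes, 91 were chosen again with TMM sizes, 92 with RLE sizes, 80 with a constant of 0.5, 63 with a constant of 4, 69 with group medians and 28 by the sum of the 4 differences. SCN against control alone shared 32 and SCN:SBA against SBA alone 29. The list kept 78 to 97 genes when 1 library was left out, and 54, 58 and 58 without replicates 1, 2 and 3 of every group. In PI518671 at 30 dpi the genes whose libraries did not overlap were 65 without replicate 3 of SBA.

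The replicate numbers were not taken as pairs: the mean correlation of same-numbered libraries' deviations was -0.11 and 0.19 in MN1806CN at 30 and 5 dpi and -0.00 and -0.09 in PI518671 at 30 and 5 dpi. Only in MN1806CN at 5 dpi were most libraries, 11 of 12, closest to their own number. With the replicate block, SCN:SBA against SCN in MN1806CN at 5 dpi called 9 (4.12% of all filtered genes), and the interaction in PI518671 at 5 dpi called 0. With it the edgeR adjusted p was 0.0597 for the gene ranked 94 in SCN:SBA against SCN in MN1806CN at 30 dpi, and 0.0638 and 0.0505 for those ranked 14 and 85 in SBA against control in PI518671 at 5 dpi. The other counts under the block stayed within 1.5 times.

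A gene at 0.5 CPM had 4.24 counts in the smallest library, so differences near that limit were not detectable with certainty at this depth.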
